A study of Mus musculus with 16 samples.

Results

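The genes described here move calcium into, within and out of the sarcoplasmic reticulum of heart muscle cells, and were followed in the left ventricle of male C57BL6 mice under 2 treatments that raise blood pressure. The members are Atp2a2, Pln, Ryr2, Casq2, Slc8a1, Cacna1c, Hrc, Trdn, S100a1 and Camk2d, and every probe that the array annotation gave to any of these 10 symbols was taken, out of 16593 gene symbols on the array. They had 17 probes, of which 12 probes of 8 genes lay above background. The 5 probes of Cacna1c and Trdn did not. Each member's probes are numbered in the order of the deposited table where a gene has several.

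RNA was measured on 16 Illumina BeadChip arrays, 4 in each of 4 groups of mice that were 12 weeks old at random assignment. The L-NAME+AngII group, called the combination below, received both agents and serves as the heart failure model of the series. The AngII group received angiotensin II, a peptide hormone that constricts vessels, at 0.7 mg/kg/day from a subcutaneous pump for 4 weeks. The L-NAME group drank water with 1% NaCl and 0.3 mg/ml L-NAME, a nitric oxide synthase inhibitor, for 5 weeks, and the control group is labelled as control with no agent. The combination group received the same doses, L-NAME with 1% NaCl for 5 weeks and AngII for 4 weeks. Whether the AngII and control mice drank salt is not stated, so L-NAME and salt cannot be told apart. Since the labels do not tie each sample to its own mouse, the spread behind a p-value is that between samples and may be technical.

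In each heartbeat calcium enters the muscle cell through the L-type channel, whose pore is Cacna1c, and opens the ryanodine receptor Ryr2, which releases stored calcium from the sarcoplasmic reticulum. Inside the store calcium is held by calsequestrin (Casq2), which triadin (Trdn) ties to the release channel, and by the histidine-rich calcium binding protein Hrc. Relaxation follows when the pump SERCA2 (Atp2a2), which phospholamban (Pln) restrains and S100a1 stimulates, returns calcium to the store, and when the sodium-calcium exchanger Slc8a1 carries the rest out of the cell. The kinase Camk2d phosphorylates Pln and Ryr2. Less SERCA2 and more Slc8a1 are often described in failing hearts.

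All values are log2 levels as deposited, with background at 7.13, the 95th percentile of probes for chemosensory receptor genes. Differences are in log2 units with the standard error (SE) of limma's linear model over all 16 arrays, and a change was called at a Benjamini-Hochberg adjusted p under 0.05 over the 13018 probes above background. The tissue label was borne out by ventricular cardiomyocyte markers, of which 9 of 9 probes of 7 genes lay above background on every array. The mean of these probes was 13.01 to 13.45 on the combination arrays, 13.39 to 13.48 on AngII arrays, 13.42 to 13.49 on L-NAME arrays and 13.36 to 13.47 on control arrays, and 1 of the 9, Tnni3, fell in the combination against control (by 0.50, limma adjusted p = 0.0274). Of the skeletal muscle markers, Myh1, Myh4, Tnnt3 and Casq1 were above background on 0 arrays, while Tnni2, Mylpf and Atp2a1 were above it on 16. Combination array 4 stood apart, with a mean correlation of 0.940 with its group, against 0.960 to 0.981 on the other 15 arrays, and carried the lowest ventricular marker mean and the highest erythroid marker mean (14.1, against 12.3 to 12.9 elsewhere). The atrial genes Myl4, Myl7 and Sln averaged 9.17, 8.12, 10.55 and 7.81 on combination arrays 1 to 4. Control array 4 also had a high atrial mean (9.78), while the remaining 11 arrays had 6.94 to 7.73. Arrays numbered 1 and 2 deviated from their group means in the opposite sense to those numbered 3 and 4 of the other groups (median r = -0.26 over 48 pairs), and the labels name no batch.

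Casq2, the main calcium-binding protein of the store, was the member that rose in the combination against control. It read 12.61, 12.91, 12.96 and 13.23 in the combination, 12.70, 12.74, 12.49 and 12.49 with AngII, 12.39, 12.42, 12.37 and 12.63 with L-NAME, and 12.34, 12.38, 12.25 and 12.51 in controls. Every combination array lay above every control array, as for 11.8% of all probes in either direction, while the combination overlapped both single treatments. The difference from control was 0.56 ± 0.13 (SE), a rise of 47.0% (95% interval of the log2 difference 0.28 to 0.83, limma adjusted p = 0.0246). Casq2 was the only 1 of the 12 member probes called in this comparison, where 5.05% of all probes were called (657, and 1021 with the replicate number as a block). In bulk tissue, RNA per cell and the number of cells of a type cannot be told apart from a level alone. Of the 9 ventricular cardiomyocyte marker probes, 0 rose in the same comparison, with differences of -0.59 (Myh6 probe 1) to 0.12 (Mybpc3). Myl2, the ventricular myosin light chain, differed by 0.07 ± 0.12 (SE). Most of these probes lay near the top of the array's range, such as Myl2 (mean 14.87), Myl3 (14.68) and Myh6 probe 2 (14.43). Whether rises are compressed there was not tested. The dimmer Irx4 (mean 8.23), Tnni3 (12.79) and Myh6 probe 1 (13.29) differed by -0.004, -0.50 and -0.59. Whether the share of cardiomyocytes differed was not tested.

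The Casq2 rise did not pass everywhere. It failed the threshold when control array 1, 2 or 3 or combination array 3 was left out (adjusted p = 0.0644, 0.0559, 0.0682 and 0.0571), and in a fit of these 2 groups alone (adjusted p = 0.132). Without combination array 4 it was 0.46 (adjusted p = 0.0415), and with the mean of the 3 atrial genes as a covariate it was 0.57 (adjusted p = 0.0455). Within arrays 1 and 2 of each group it was 0.40 and within arrays 3 and 4 it was 0.71 (adjusted p = 0.164 and 0.217, with 2 arrays a group).

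The start regions of Casq2 and Hrc are shown here because these are the members whose level passed a test. They are the RefSeq promoter windows of 250 bases before to 50 bases after the gene start on GRCm38.p6, Casq2 at chr3:102086165-102086464 on the plus strand and Hrc at chr7:45335019-45335318 on the plus strand. Capitals mark matches, on either strand and with overlaps allowed, to the E-box CANNTG, to the MEF2 consensus or to the SRF consensus (CArG box).
Casq2: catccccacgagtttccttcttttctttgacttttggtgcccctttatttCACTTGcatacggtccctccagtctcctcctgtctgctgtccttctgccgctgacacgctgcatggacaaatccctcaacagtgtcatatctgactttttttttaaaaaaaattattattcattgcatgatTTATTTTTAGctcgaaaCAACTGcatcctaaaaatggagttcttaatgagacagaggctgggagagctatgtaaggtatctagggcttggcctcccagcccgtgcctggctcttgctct
Hrc: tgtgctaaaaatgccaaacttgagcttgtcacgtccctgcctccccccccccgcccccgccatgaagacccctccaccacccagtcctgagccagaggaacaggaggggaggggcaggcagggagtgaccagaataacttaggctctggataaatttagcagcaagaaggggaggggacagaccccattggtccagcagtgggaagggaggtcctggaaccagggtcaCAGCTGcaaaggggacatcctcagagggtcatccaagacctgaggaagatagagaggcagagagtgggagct
Casq2 held a MEF2 match 69 to 60 bases before the start and E-boxes at 200 to 195 and 52 to 47 bases before it. Hrc held an E-box, CAGCTG, at 22 to 17 bases before the start. MEF2 and SRF are factors of muscle genes, and E-boxes bind many helix-loop-helix factors. The table had 10 windows for 8 members, of which 1 held a MEF2 match, 8 an E-box and 0 an SRF match, against 3.19%, 72.3% and 1.63% of all 32851 promoter windows. A match is a description of letters and not of binding.

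Hrc, a calcium-binding protein of the store that also contacts SERCA2 and triadin, was lowest in the combination. It read 14.25, 14.02, 14.13 and 13.97 in the combination, 14.47, 14.57, 14.50 and 14.59 with AngII, 14.59, 14.46, 14.45 and 14.49 with L-NAME, and 14.39, 14.44, 14.38 and 14.28 in controls. All combination arrays lay below all 12 other arrays, and all arrays of either single treatment lay above all control arrays. The share of all probes with this joint order was not counted. Against AngII alone Hrc fell by 0.44 (SE 0.09, 95% interval -0.64 to -0.24, limma adjusted p = 0.0441), so that its level fell by 26.3%. Against L-NAME alone it fell by 0.41 (SE 0.09, 95% interval -0.60 to -0.21, limma adjusted p = 0.0410). These contrasts share the combination arrays. Hrc was the only 1 of 12 member probes called in either, where 0.584% and 1.61% of all probes were called and 7.32% and 9.91% did not overlap. The Hrc probe lay near the top of the array's range (0.49% of all probes brighter), and whether differences are compressed there was not tested.

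Against control the Hrc difference was -0.28 ± 0.09 (SE, limma adjusted p = 0.0948), with groups that did not overlap, as for 11.8% of probes. With AngII it was 0.16 ± 0.09 and with L-NAME 0.13 ± 0.09 (adjusted p = 0.481 and 0.696), also without overlap, as for 10.6% and 9.48% of probes. The interaction, that is the AngII effect with L-NAME minus the AngII effect without it, was -0.57 ± 0.13 and was not called (unadjusted p = 0.00056, adjusted p = 0.0888). In limma's F test over the 4 groups Hrc was the only 1 of 12 member probes called (adjusted p = 0.0475), against 2.07% of all probes, and that call was lost in all 16 fits that left out an array. The fall against AngII held in 1 of those 16 fits (differences -0.49 to -0.40, adjusted p 0.0490 to 0.135), and the fall against L-NAME in 4 (-0.46 to -0.37, adjusted p 0.0394 to 0.135). Without combination array 4 they were -0.40 and -0.37 (adjusted p = 0.0570 and 0.0607), and with the atrial covariate -0.46 and -0.43 (adjusted p = 0.123 and 0.111). Within arrays 1 and 2 they were -0.39 and -0.39, and within arrays 3 and 4 -0.49 and -0.42 (adjusted p 0.246 to 0.501).

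**Figure D1:**
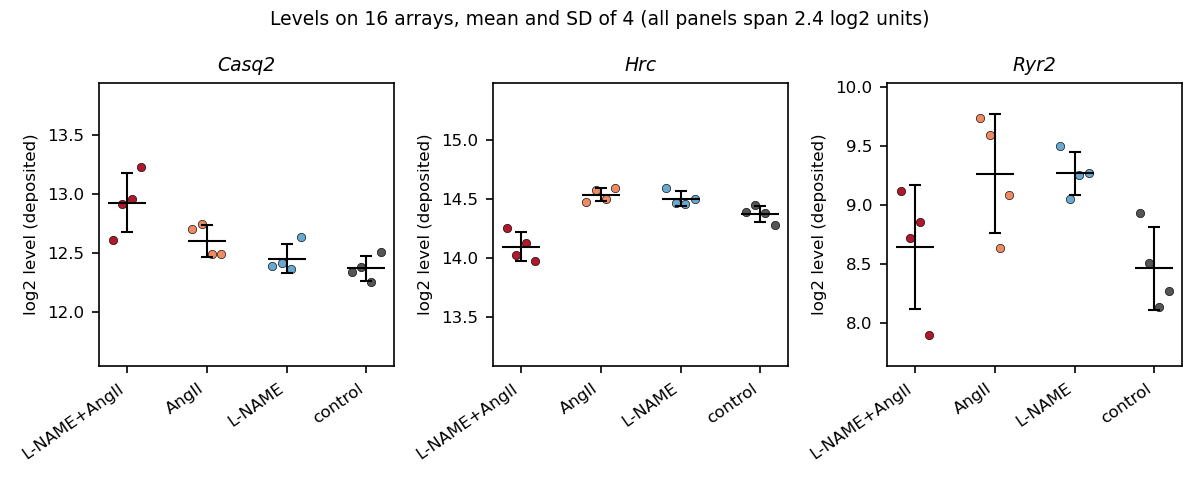
Deposited log2 levels of Casq2, Hrc and Ryr2 on the 16 arrays, by group, with points in the order of array numbers 1 to 4, long ticks for group means and bars for the SD (n = 4). The combination arrays of Casq2 (12.61 to 13.23) lie above all control arrays (12.25 to 12.51), and those of Hrc (13.97 to 14.25) below all other arrays, while Ryr2 is highest with either single treatment.

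Ryr2, the calcium release channel itself, had its highest levels with either agent alone. It read 9.12, 8.72, 8.85 and 7.90 in the combination, 9.74, 9.59, 8.64 and 9.08 with AngII, 9.50, 9.05, 9.25 and 9.27 with L-NAME, and 8.93, 8.51, 8.13 and 8.27 in controls. All L-NAME arrays lay above all control arrays, in a comparison where 9.48% of all probes did not overlap, and the other groups overlapped. The difference from control was 0.80 ± 0.27 (SE) with AngII and 0.80 ± 0.27 with L-NAME, both with wide intervals (0.23 to 1.38 each), and neither was called (limma adjusted p = 0.206 and 0.312). In the combination it was 0.18 ± 0.27 (adjusted p = 0.756), 0.43 without combination array 4 (adjusted p = 0.351), and 0.03 to 0.43 over all fits that left out an array. The interaction was -1.42 ± 0.38 (95% interval -2.23 to -0.61, unadjusted p = 0.00200, adjusted p = 0.121). Ryr2 was lower on arrays 3 and 4 than on arrays 1 and 2 by 0.47 on average, with that sign in 4 of 4 groups, and the AngII difference was 0.95 within arrays 1 and 2 and 0.66 within arrays 3 and 4. The L-NAME difference was 0.55 and 1.06 in those same sets (adjusted p 0.302 to 0.662 over the 4 values).

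For the pump and its regulators, 0 of 4 probes passed a test in any comparison. All 4 lay near the top of the array's range (0.249% to 0.899% of all probes brighter). Whether differences are compressed there was not tested, so the values do not show that these RNAs were unchanged. Atp2a2 probe 1 read 14.23, 14.18, 14.08 and 14.26 in the combination, 14.60, 14.41, 13.99 and 13.85 with AngII, 14.03, 14.29, 14.14 and 14.12 with L-NAME, and 14.48, 14.42, 14.03 and 14.33 in controls. Atp2a2 probe 2 read 14.44, 14.46, 14.54 and 14.52 in the combination, 14.23, 14.51, 14.45 and 14.46 with AngII, 14.41, 14.49, 14.52 and 14.59 with L-NAME, and 14.27, 14.41, 14.52 and 14.56 in controls. All groups overlapped on both probes. The combination differed from control by -0.12 ± 0.15 on probe 1 and by 0.05 ± 0.10 on probe 2 (SE, limma adjusted p = 0.705 and 0.838), with 95% intervals of -0.45 to 0.20 and -0.16 to 0.26. The probes ran against each other across arrays (Pearson r = -0.51 over 16 arrays and -0.50 within groups, a description). Probe 1 was lower by 0.23 and probe 2 higher by 0.12 on arrays 3 and 4 than on arrays 1 and 2, each in 4 of 4 groups.

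Pln, the brake on the pump, read 14.07, 13.77, 14.08 and 13.89 in the combination, 13.84, 13.98, 13.87 and 14.07 with AngII, 14.01, 13.98, 13.94 and 14.21 with L-NAME, and 13.98, 14.12, 14.22 and 14.25 in controls. Its difference from control was -0.19 ± 0.11 in the combination, -0.20 ± 0.11 with AngII and -0.11 ± 0.11 with L-NAME (SE, limma adjusted p = 0.360, 0.456 and 0.815). Pln minus Atp2a2 probe 2 on the same array, a difference of log2 levels that shows unequal change and no ratio of molecules, averaged -0.54 ± 0.15 in the combination, -0.47 ± 0.10 with AngII, -0.47 ± 0.09 with L-NAME and -0.30 ± 0.01 in controls (SD, n = 4). Every treated array lay below every control array in this difference, but against Atp2a2 probe 1 the groups overlapped, at -0.40 to -0.01 in the combination and -0.50 to 0.19 in controls. The share of all probe pairs that separate in this way was not counted. Neither Pln nor Atp2a2 was called in any comparison, so the separation is a description only. S100a1, which raises pump and release channel activity, lay between 14.42 and 14.68 on all 16 arrays, and its combination against control difference was 0.07 ± 0.09 (adjusted p = 0.722, 95% interval -0.13 to 0.27).

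The sarcolemmal exchanger Slc8a1 read 12.52, 12.82, 12.96 and 13.27 in the combination, 13.05, 12.99, 12.75 and 12.92 with AngII, 12.73, 12.59, 12.83 and 13.01 with L-NAME, and 12.45, 12.59, 12.75 and 12.81 in controls. Group means were above control in all 3 treated groups, and all groups overlapped control. The differences were 0.24 ± 0.15, 0.28 ± 0.15 and 0.14 ± 0.15 for the combination, AngII and L-NAME (SE, limma adjusted p = 0.397, 0.449 and 0.829). Without combination array 4, the combination difference was 0.11.

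Camk2d, the main cardiac isoform of the kinase, had 4 probes that the annotation assigns to 3 transcript records, and these did not move as a unit. Probe 1 read 10.13, 10.48, 10.52 and 10.61 in the combination, 10.17, 10.27, 10.62 and 10.36 with AngII, 10.22, 10.24, 10.62 and 10.26 with L-NAME, and 9.94, 10.08, 10.34 and 10.23 in controls. Its combination against control difference was 0.29 ± 0.14 (SE, limma adjusted p = 0.268, and 0.0932 with the replicate number as a block), and the groups overlapped. No label pairs the samples by number, so differences by number are a description only, taken for probe 1 and not for the other Camk2d probes. By array number, probe 1 lay above control by 0.19, 0.40, 0.19 and 0.38 in the combination, by 0.23, 0.19, 0.29 and 0.13 with AngII and by 0.28, 0.17, 0.28 and 0.03 with L-NAME. All 4 differences had 1 sign for 29.5%, 28.5% and 26.6% of all probes in these comparisons, which share the control arrays. Probes 2 and 3 differed by 0.37 ± 0.24 and 0.27 ± 0.25 (adjusted p = 0.406 and 0.607), and probe 4 by -0.29 ± 0.17 (adjusted p = 0.362). Leaving out 1 array moved these values, and probe 2 gave 0.12 without combination array 3, and probes 3 and 4 gave 0.12 and -0.16 without combination array 4. Probe 4 was dim, at 6.87 to 7.61 in the combination, where it was above background on 2 of 4 arrays, and at 7.38 to 7.74 in controls. Which transcripts of Camk2d changed, if any, is not settled by these probes.

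**Figure D2:**
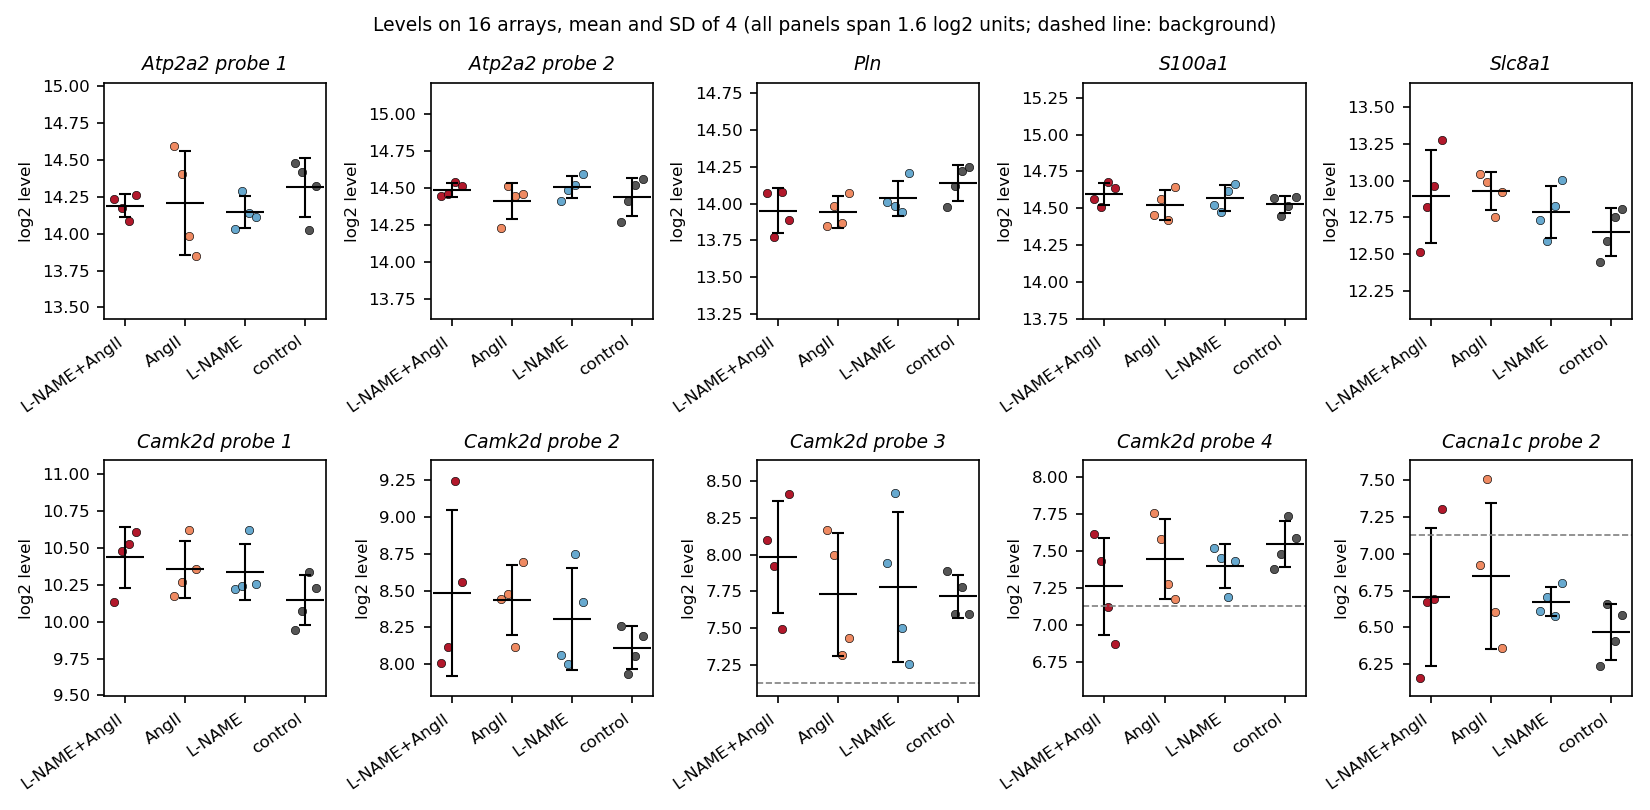
Deposited log2 levels by group for the probes of Atp2a2, Pln, S100a1, Slc8a1 and Camk2d and for the brightest probe of Cacna1c, with means and SD (n = 4); the dashed line is the background of 7.13, drawn in the panels it crosses. The groups overlap in every panel for the combination and control arrays, and Camk2d probe 4 and Cacna1c probe 2 lie near or under the line.

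Cacna1c, the pore of the L-type channel, and Trdn, the anchor of calsequestrin, could not be compared. Cacna1c probes 1, 3 and 4 and the Trdn probe were above background on 0 of 16 arrays. Cacna1c probe 2 was above it on 2 arrays, at 7.31 on combination array 4 and 7.51 on AngII array 2. Trdn read 5.82 to 6.04 in the combination, 5.88 to 5.94 with AngII, 5.89 to 6.23 with L-NAME and 5.92 to 6.37 in controls. These readings describe the probes and give no level of the transcripts.

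**Figure D3:**
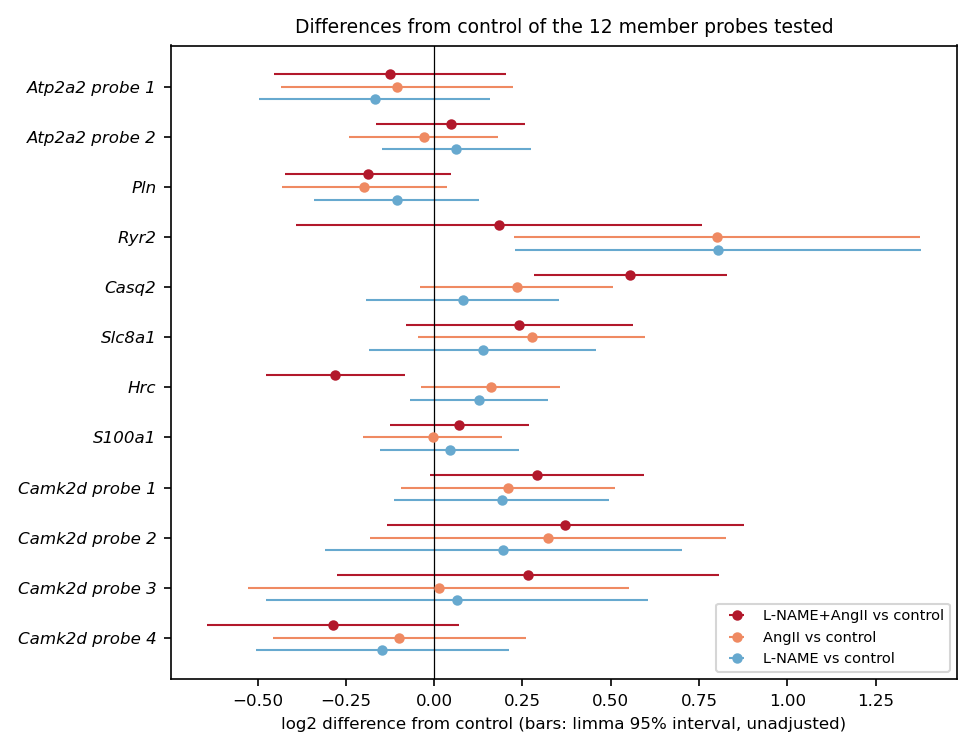
Log2 differences from control of the 12 member probes above background, with limma's 95% intervals (unadjusted), for the combination, AngII and L-NAME. The intervals exclude 0 for Casq2 and Hrc in the combination and for Ryr2 with each single treatment, of which Casq2 passed the adjusted test.

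Over the 12 member probes the combination minus control differences had a median of 0.13, with 8 above 0, beside a median of -0.01 over all probes. The median size, without sign, was 0.25 for the members and 0.21 for all probes. For AngII the member median was 0.09 and for L-NAME 0.07, and 0 of the 12 were called in either comparison, where 0% of all probes were called by limma. At an unadjusted p under 0.05, 1 of the 12 passed in each of these, Ryr2 both times, against 13.5% of all probes for AngII and 10.6% for L-NAME. The interaction was called for 0 members and 0% of all probes, with 2 of 12 (Ryr2 and Hrc) under an unadjusted 0.05, against 15.2% of all probes. These comparisons share control arrays, so their values are given side by side only.

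Across the 16 arrays the members did not vary together. Casq2 and Hrc ran in opposite directions, with Pearson r = -0.71 over all arrays and -0.63 after group means were removed, while Casq2 and Slc8a1 ran together at 0.71 and 0.83. S100a1 and Camk2d probe 2 gave 0.73 and 0.78. These are descriptions over arrays that share groups and array sets. Likeness was measured as Pearson r over the 16 arrays with every other probe above background. The 3 most like Casq2 were Slk (0.909), a kinase, Cttnbp2nl (0.893) and Trappc3 (0.883), a part of a vesicle tether. The 3 most like Hrc were Slc25a42 (0.946), a mitochondrial carrier of coenzyme A, Ldhd (0.905), a mitochondrial D-lactate dehydrogenase, and Whrn (0.900). For Ryr2 they were Ube4b (0.918), a ubiquitin ligase, Vps53 (0.918) and Hsd17b4 (0.904), an enzyme of peroxisomal fat oxidation. Atp2a2 probe 1 was most like Gnas (0.874), and probe 2 most like Myl2 (0.874), the ventricular myosin light chain. Only Casq2 with Slc8a1, and S100a1 with Camk2d probe 2, were pairs in which a member lay within the top 1% of probes for another.

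Other genes of the calcium machinery were read from 6 lists, of which 76 of 88 genes were on the array and 91 probes of 61 genes lay above background. In the combination against control 2 probes rose and 1 fell (5.05% of all probes were called), with a median of 0.04 over the 91. The release channel and junction list had 1 rise among 18 probes. Asph probe 6 read 9.92, 9.45, 9.79 and 9.97 in the combination, 9.47, 9.72, 9.07 and 9.39 with AngII, 9.51, 9.14, 9.09 and 9.46 with L-NAME, and 8.74, 9.13, 8.88 and 9.13 in controls. All combination arrays lay above all controls, in a comparison where 11.8% of all probes did not overlap. The difference was 0.81 ± 0.16 (SE, limma adjusted p = 0.0114), called in all 16 fits that left out an array, and 0.75 and 0.88 within arrays 1 and 2 and within arrays 3 and 4, where it did not pass (adjusted p = 0.123 and 0.195). The Asph locus encodes aspartyl hydroxylase and also junctin, the partner of triadin and calsequestrin, and the sources used here do not say which product probe 6 reads. The other 9 Asph probes above background differed by -0.22 to 0.59, 7 of them above 0, and 0 were called.

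The list of S100 proteins and luminal calcium binders had 1 rise among 13 probes, in Calu, the calcium-binding protein calumenin of the secretory pathway. Calu probe 3 read 12.08, 12.13, 12.33 and 12.24 in the combination and 11.50, 11.43, 11.64 and 11.98 in controls, with no overlap, as for 11.8% of all probes. The rise of Calu probe 3 was 0.56 ± 0.14 (SE, limma adjusted p = 0.0363). It no longer passed when control array 1, 2 or 3, L-NAME array 1 or combination array 1, 3 or 4 was left out (adjusted p 0.0509 to 0.101), nor with the atrial covariate (0.46, adjusted p = 0.0945), and the other 3 Calu probes differed by 0.02 to 0.31. The kinase, phosphatase and phosphodiesterase list had 1 fall among 22 probes, in Camk2a, a form of the kinase best known from neurons. Camk2a probe 3 was above background on 0 of 4 combination arrays (6.36 to 6.80), against 4 of 4 control arrays (7.13 to 7.75). Its mean on these combination arrays was therefore at least 1.155-fold below the control mean (limma difference -0.71, adjusted p = 0.0279). That bound takes no account of the spread between arrays. The fall no longer passed when control array 2 or 3 or combination array 1 was left out, with a trended robust variance (adjusted p = 0.0623) or with the atrial covariate (adjusted p = 0.0578). The brighter Camk2a probe 1 differed from control by -0.29 in the combination and was not called there. Camk2a probe 1 read 8.46, 8.07, 8.28 and 8.07 in the combination and 8.87, 8.82, 8.63 and 9.13 with AngII, and was the only 1 of the 91 probes called between these groups, with a fall by 0.64 (SE 0.13, adjusted p = 0.0402). That call held in 3 of 16 fits that left out an array, and did not hold with a trended robust variance (adjusted p = 0.0608), with the atrial covariate (0.106) or within either array set (0.188 and 0.489). Between the combination and L-NAME, and between each single treatment and control, 0 of the 91 were called.

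The remaining lists held 0 called probes in any comparison: 12 probes of SERCA paralogs and regulators, 16 of sarcolemmal calcium and sodium transport, and the mitochondrial calcium transport probes. Sln, the atrial pump inhibitor sarcolipin, read 8.28, 7.08, 9.99 and 7.21 in the combination and 6.23, 7.23, 6.03 and 8.29 in controls (difference 1.19 ± 0.57, limma adjusted p = 0.253, 0.58 to 1.64 with an array left out), high on combination array 3 and control array 4 as the other atrial genes were. Sln was above background on 3 combination, 2 control, 1 L-NAME and 0 AngII arrays, so its difference rests partly on values under background. The brighter probe of the junction protein Jph2, above background on 3 of 4 combination and 1 of 4 control arrays, differed by 0.38, and by 0.05 to 0.81 with an array left out (adjusted p = 0.647). The channel subunit Cacnb2 differed by -0.16 and -0.06 on 2 probes, the sodium pump regulator Fxyd1 by 0.03 and -0.08, and the mitochondrial uniporter Mcu by -0.56 and 0.03 (adjusted p 0.275 to 0.973 over these 6 probes). Mcu probe 1 gave -0.24 without combination array 4 and -0.06 within arrays 1 and 2. Fkbp1b, which stabilises the closed release channel, and Casq1, the skeletal calsequestrin, were above background on 0 arrays.

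**Figure D4:**
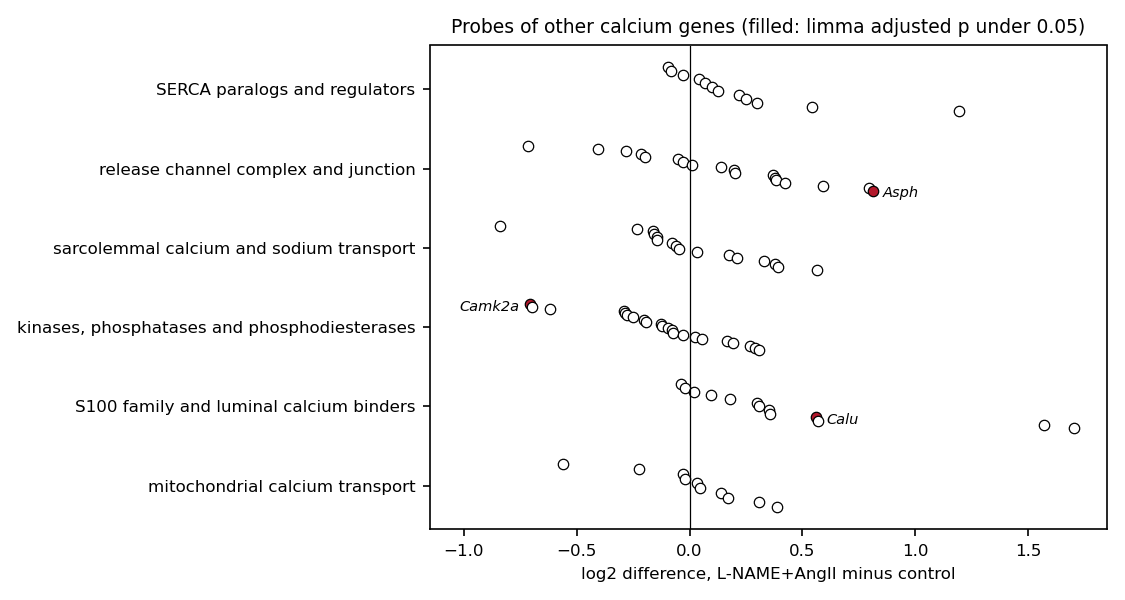
Log2 differences, combination minus control, of the 91 probes of other calcium genes above background, in rows by list, with probes sorted within a row; filled points passed limma's adjusted test. Asph (0.81) and Calu (0.56) lie right of 0 and Camk2a (-0.71) left of it. For Camk2a the combination arrays are all below background, so that its fold is only a bound of at least 1.155.

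Other cell types could differ between the groups. Of smooth muscle probes, 4 of 5 rose in the combination against control, all of them Acta2 (by 0.88 to 1.38, limma adjusted p 0.000259 to 0.00595). The remaining probe of the 5, Myh11, differed by 0.42 ± 0.42 (SE) and was not called (limma adjusted p = 0.617). The list mean was 9.49 to 10.2 in the combination, against 8.84 to 9.23 in controls. It covers 7 probes, 4 of them Acta2, and includes Tagln and Cnn1, above background on 3 and 0 arrays. Of atrial probes 1 of 4 rose, Nppa (by 0.57, adjusted p = 0.0311), and Bmp10 was above background on 0 arrays. The genes of the atrial covariate, Myl4, Myl7 and Sln, differed by 1.02, 0.72 and 1.19. None of them was called (limma adjusted p = 0.293, 0.613 and 0.253). Which cells the Nppa rise came from was not tested. Of fibroblast, endothelial, macrophage and erythroid probes 0 of 7, 5, 3 and 2 were called, and fibroblast means were 9.95 to 11.4 in the combination, against 10.3 to 10.6 in controls. The part of these cells in the Casq2, Hrc and Asph values was not tested beyond the atrial covariate.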

How the data were processed

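Left ventricular RNA of 16 samples was measured on Illumina BeadChips, and the values used are the log2 levels deposited by the authors for 25697 probes. Per the submitters' processing notes the tools were GenomeStudio and lumi. Neither their versions nor whether the log2 scale came from a variance-stabilising step could be read from the labels. The sorted columns differ by at most 0.00132, so the deposited log2 values are quantile normalised (median 6.90 on every array), and the number of arrays limits the precision. A further table with 64 per-sample columns was not used, since its column names match no label.

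The platform annotation gave 1 symbol to 23978 probes, none to 1719 and several to 0. Entrez identifiers tied 23962 probes to the RefSeq gene table, and 0 symbols differed. Background was set from 1360 probes of chemosensory receptor genes, at their 95th percentile. The 13018 probes that exceeded it on 4 or more arrays were fitted one by one as 4 group means with limma's linear model and empirical Bayes moderation, with 12 residual and 3.31 prior degrees of freedom. The 6 comparisons and an F test were each adjusted over all probes kept. For Camk2a probe 3, the fold bound set each dim array at the higher of its own value and the background. The members and gene lists were chosen with earlier results of these data known. Named besides the members were listed genes called in any comparison, and Jph2, Fkbp1b, Sln, Casq1, Cacnb2, Fxyd1 and Mcu whatever their value. The likeness search skipped predicted gene models, Y-linked genes and Xist.

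The labels number the samples 1 to 4 in each group. Deviations from group means correlated above 0.1 in all 24 same-numbered pairs (r 0.129 to 0.438), and a fit with the numbers as a block was run, though no label pairs the samples. Different numbers within 1 and 2, or within 3 and 4, correlated nearly as well (lowest 0.111, median 0.230, against a median of 0.285 for the same number and -0.260 across these sets). These values therefore do not show a pairing by number. The alternatives were other filters, 1 probe per gene, other variance models, array weights, the replicate and set blocks, the sets apart, 2 groups alone, median centring, cyclic loess, an atrial covariate, a threshold of 0.1 and each array left out. The fit was tested on simulated data. The tools here were limma 3.58.1 in R 4.3.3, with the data.table package at 1.17.8, and matplotlib 3.10.9 in Python 3.11.15.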

Additional observations from a re-analysis of the deposited data

Results flagged for a closer look

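Chance flags about 1 in 20 groups for a sample far from the others, and 2 of the 68 groups of member probes tested were. Camk2d probe 1 stood high on L-NAME array 3, at 10.6, with the other L-NAME arrays at 10.2 to 10.3. Cacna1c probe 1 stood low on combination array 4, at 5.89, with the other combination arrays at 5.97 to 5.98, all below background, where values carry no order of transcript level.

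For Hrc the AngII differences had opposite signs with and without L-NAME. Every array with AngII alone lay above every control array, in a comparison where 10.6% of all probes did not overlap. That difference was 0.16 and was not called (limma adjusted p = 0.481). Every combination array lay below every L-NAME array, where 9.91% of all probes did not overlap. The interaction was -0.57 and was not called by limma (unadjusted p = 0.00056, adjusted p = 0.0888).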

How the results depend on the processing

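Over all alternatives, 749 of 803 refitted member values kept their direction and their side of the threshold, 42 lost and 7 gained a call and 5 changed sign; for the other calcium genes these were 291, 41, 0 and 20 of 352. Calls among the 12 member probes in the combination against control (1) became 2 with a trended robust variance or at an adjusted p under 0.1, and 0 in arrays 1 and 2, in arrays 3 and 4, or in the 2 groups alone. Against AngII (1) they became 0 in these same 3 fits and with the atrial covariate. Against L-NAME (1) they became 2 under the trended robust variance and at 0.1, and 0 in those 4 fits. The interaction (0) became 1 and the F test (1) became 2 under the trended robust variance and at 0.1, and the F test 0 in either array set, with cyclic loess and with the atrial covariate. Leaving out each array gave 0 to 1, 0 to 1 and 0 to 2 calls for the combination against control, AngII and L-NAME, and 0 for AngII and for L-NAME against control, the interaction and the F test. Without L-NAME+AngII replicate 1, Casq2 was also called against L-NAME (0.58, adjusted p = 0.0404). The replicate block changed no member call (Casq2 adjusted p = 0.0192, Hrc 0.0461 against AngII and 0.0406 against L-NAME). The trended robust variance called Hrc against control (-0.28, adjusted p = 0.0151) and in the interaction (-0.57, adjusted p = 0.0142).

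Signs changed for uncalled differences of the combination from control: in arrays 3 and 4, Atp2a2 probe 2 (-0.012), Jph2 probe 1 (-0.56), Fxyd1 probe 1 (-0.013), Fxyd1 probe 2 (0.17) and Mcu probe 2 (-0.33); in arrays 1 and 2, Camk2d probe 2 (-0.035), Camk2d probe 4 (0.10), Cacnb2 probe 1 (0.12) and Cacnb2 probe 2 (0.039); and with the atrial covariate, Cacnb2 probe 2 (0.13). The Casq2 interaction became -0.0014 in arrays 1 and 2. Leaving out an array gave -0.0096 to 0.087 for Atp2a2 probe 2, -0.28 to 0.093 and -0.21 to 0.12 for Cacnb2 probes 1 and 2, -0.058 to 0.24 and -0.20 to 0.016 for Fxyd1 probes 1 and 2, and -0.19 to 0.25 for Mcu probe 2. Over all probes, limma called 657 in the combination against control, and 1021 with the replicate block, 1088 with the array sets as a block, 1415 with array weights, 1185 at an adjusted p under 0.1, 305 in arrays 1 and 2, 0 in arrays 3 and 4 (1954 at an unadjusted p under 0.05), 118 in the 2 groups alone and 302 to 674 with an array left out. The causes were not tested, beyond fewer arrays in the smaller fits.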

Other observations

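A pair of calcium genes outside the naming rule were chosen after their values were seen. Rrad, a small GTPase that inhibits the L-type calcium channel, read 11.50, 11.60, 10.96 and 10.93 in the combination, 12.20, 11.99, 10.66 and 11.57 with AngII, 11.66, 12.13, 11.81 and 11.68 with L-NAME, and 12.14, 11.995, 12.11 and 12.10 in controls. All combination arrays lay below all control arrays, in a comparison where 11.8% of all probes did not overlap. The difference of -0.84 ± 0.26 (SE) was not called (limma adjusted p = 0.0772). With an array left out, a check added after the data were seen, it was -0.96 to -0.73 and was called in 1 of 16 fits, without AngII array 3 (adjusted p = 0.0171).

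S100a8, a calcium-binding protein of neutrophils, read 10.10, 9.94, 9.15 and 12.28 in the combination, 8.72, 8.29, 8.31 and 8.89 with AngII, 8.77, 8.68, 9.39 and 8.57 with L-NAME, and 8.95, 8.16, 9.15 and 8.39 in controls. It was highest on combination array 4, and the difference from control of 1.71 ± 0.48 (SE) was not called (limma adjusted p = 0.0511). In the same check its lowest value was 1.07, when combination array 4 was dropped (adjusted p = 0.0449). Dropping combination array 3 gave its highest value, 2.11 (adjusted p = 0.0248), and it was called in those 2 of 16 fits only.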
